A study of Mus musculus with 2 samples.

Results

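The genes described here are 39 lysosomal enzymes, lysosomal membrane proteins and the transcription factors of the TFEB family. The arrays read 18193 mouse genes in all. The 39 were chosen by name for what they encode, with earlier results of these data known. They were found by gene symbol in the array's annotation. Of these 39 genes, 38 were read by at least 1 probe set that carried their symbol alone, and Cd63 was not analysed here. The tested culture came from the bone marrow of C57BL/6 mice, and in it an siRNA was aimed at lncMDSC, a long non-coding RNA known in the study as lnc-C/EBPβ (silncMDSC). Its counterpart was bone marrow of the same strain given a control siRNA. After transfection both cultures grew for 4 days in medium with GM-CSF plus IL-6, a mixture that drives bone marrow towards myeloid-derived suppressor cells (MDSCs), before 6 µg of total RNA was labelled for an Affymetrix mouse genome array. There was 1 array for each siRNA, so the differences below come without a replicate check, an error or a test, and each describes this pair of arrays. The sources used here do not state how many mice gave the marrow or whether the cells were sorted before RNA extraction.

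The lysosome is the acid compartment in which cells break down protein, sugar chains, lipids and whatever they have taken up or set aside for autophagy. Its soluble hydrolases are carried there mostly by mannose 6-phosphate receptors, its membrane proteins fence in the acid and let the products out, and a proton pump, the vacuolar ATPase, keeps the inside acid. TFEB and its relatives MITF, TFEC and TFE3 are factors that bind E-boxes with the core CACGTG. TFEB drives many lysosomal genes, and mTORC1 on the lysosomal surface holds it in the cytoplasm while nutrients are plentiful. In macrophages and dendritic cells the same proteases also cut antigens and the invariant chain of MHC class II.

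Each value is the intensity of a probe set, a linear number that the authors deposited, and of several probe sets for a gene the one brightest on average represents it. A difference is log2(intensity + 1) on the silncMDSC array minus that on the control siRNA array, so that a positive number means a higher intensity in silncMDSC. Genes whose higher value reached the median of all probe set values, an intensity of 78.4 called the floor, were analysed. This held for 11920 genes and for all 38 genes read here, and none of the 38 passed through 1 array only. Intensities of different genes cannot be set against each other, because each probe set binds its target in its own way. Median intensities of all probe sets were 79.0 on the silncMDSC array and 77.9 on the control array, and over the 11920 genes the median difference was -0.002 with a robust SD (scaled median absolute deviation) of 0.18. MDSC cultures hold neutrophil-like and monocyte-like cells, and the 13 neutrophil and 8 monocyte markers that were read all reached the floor, Cx3cr1 through the silncMDSC array only. The lncRNA targeted by the siRNA has no probe set named here, so its knockdown was not analysed.

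As a whole the lysosomal genes lay close to the level of the control culture, with a few members far from it on either side. Tfec, a TFEB relative, and Lgmn, the protease legumain, were lower in silncMDSC by more than 1.5-fold, and Gm2a, a lipid-binding cofactor, was higher by more than 1.5-fold. Of the 38 genes, 17 were above 0 and 21 below, with a median difference of -0.02, against 49.3% above 0 and a median of -0.002 over all analysed genes. The sign of this small median turned to 0.01 with a loess trend on level removed and to 0.008 after quantile normalization.

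At the 1.5-fold threshold 1 of the 38 was higher and 2 were lower, where 0.948% and 1.42% of all analysed genes passed it in these directions. At a smaller threshold of 1.2-fold, 2 were higher, Gm2a and Glb1, and 5 were lower, Tfec, Lgmn, Ctsk, Ctsl and Mitf. The background at 1.2-fold was 6.96% of all analysed genes higher and 10.6% lower. Just inside this smaller threshold lay Mitf at -0.29 and Ctsl at -0.30, and just outside it lay Smpd1 at 0.25, Ctsb at -0.25, Man2b1 at 0.24 and Fuca1 at 0.23. With a loess trend removed, or after quantile normalization, 4 were higher and 4 lower, and Mitf, at -0.26 and -0.25, no longer passed. By the mean of all probe sets neither Mitf (-0.22) nor Ctsl (-0.26) passed, whereas Gusb (-0.29) and Ctsb (-0.46) did. In all, 25 of the 38 differed by less than 0.15 in either direction.

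**Figure D1:**
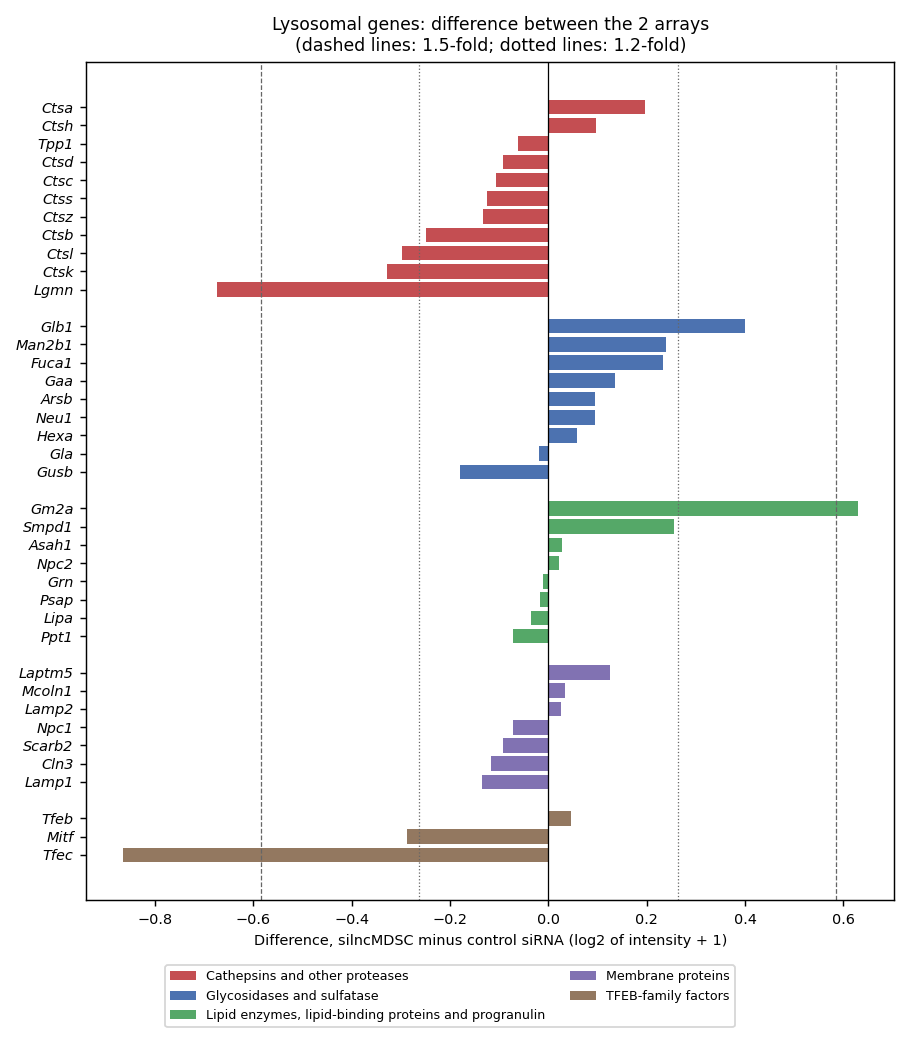
Bars show the silncMDSC minus control siRNA difference (x axis, log2 of intensity + 1, 1 array per group) of each of the 38 lysosomal genes, coloured by role. Tfec at -0.86 and Lgmn at -0.67 lie past the dashed 1.5-fold line on the left and Gm2a at 0.63 past the one on the right.

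E-box sequences in the promoters of these genes are shown first, since they are the sites through which TFEB-family factors are known to act. Promoter windows from RefSeq (build GRCm38.p6), each running from 250 bases before to 50 after an annotated start, were found for 35 of the 39 genes, 43 windows in all. The letters CACGTG, which read the same on both strands, were in a window of 10 of the 35 genes (28.6%), against 8.09% of all 27025 genes with a window. Per window, 10 of 43 held them, against 7.15% of 32851. The longer TCACGTGA, which contains those letters, was in 5 of the 35 (Ctsa, Ctsd, Gla, Cln3 and Mcoln1), against 1.12% of all genes. The palindrome at the heart of the CLEAR element of lysosomal genes, which adds a G before and a C after those 8 letters, was in 1, Cln3, against 0.37%. A match describes these letters and is no evidence that a factor bound there.

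Windows of 4 genes are printed, with every match in capitals, because they set the motif beside the differences. Lgmn and Glb1 each hold a single CACGTG at nearly the same distance from a start and lay on opposite sides of 0, Lamp1 holds the most copies, and Cln3 has the longest match. Lgmn and Cln3 each have another annotated window, which holds no match.
Lgmn (chr12:102439043-102439342, minus strand): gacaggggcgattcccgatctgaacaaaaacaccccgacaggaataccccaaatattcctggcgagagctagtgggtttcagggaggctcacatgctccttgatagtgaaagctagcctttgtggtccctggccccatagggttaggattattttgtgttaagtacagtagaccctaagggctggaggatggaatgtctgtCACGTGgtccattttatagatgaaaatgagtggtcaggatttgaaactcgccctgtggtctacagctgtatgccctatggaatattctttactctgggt
Glb1 (chr9:114400828-114401127, plus strand): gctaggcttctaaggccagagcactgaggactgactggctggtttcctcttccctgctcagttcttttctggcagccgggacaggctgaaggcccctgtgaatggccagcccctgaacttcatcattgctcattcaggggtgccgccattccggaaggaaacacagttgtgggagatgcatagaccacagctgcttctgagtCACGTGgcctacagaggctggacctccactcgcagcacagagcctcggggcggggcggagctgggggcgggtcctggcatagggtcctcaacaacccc
Lamp1 (chr8:13158911-13159210, plus strand): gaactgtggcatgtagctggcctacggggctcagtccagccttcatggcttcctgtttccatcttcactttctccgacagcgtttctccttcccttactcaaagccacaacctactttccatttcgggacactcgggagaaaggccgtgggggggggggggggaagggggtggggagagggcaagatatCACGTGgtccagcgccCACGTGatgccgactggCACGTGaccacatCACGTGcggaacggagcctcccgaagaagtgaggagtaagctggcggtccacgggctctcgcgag
Cln3 (chr7:126583187-126583486, minus strand): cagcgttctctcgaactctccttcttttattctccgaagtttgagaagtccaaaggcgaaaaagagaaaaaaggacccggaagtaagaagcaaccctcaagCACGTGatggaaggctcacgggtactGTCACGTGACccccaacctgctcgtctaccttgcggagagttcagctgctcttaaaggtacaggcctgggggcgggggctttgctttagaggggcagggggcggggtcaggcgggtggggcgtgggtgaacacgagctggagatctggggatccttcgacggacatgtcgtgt
The match begins 49 bases before the start in Lgmn and 48 bases before it in Glb1. In Lamp1 the 4 copies begin 61, 45, 28 and 15 bases before the start. In Cln3 the 10-letter match sits next to a second CACGTG that begins 149 bases before the start.

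Members with the motif did not stand to one side of those without it. The 10 with CACGTG ranged from -0.67 in Lgmn to 0.40 in Glb1, with 4 above 0, 6 below and a median of -0.06. The 24 others that were read and had a window ranged from -0.86 in Tfec to 0.63 in Gm2a, with 11 above 0, 13 below and a median of -0.01. Both of the genes at those outer ends, Tfec and Gm2a, had no CACGTG in these windows.

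**Figure D2:**
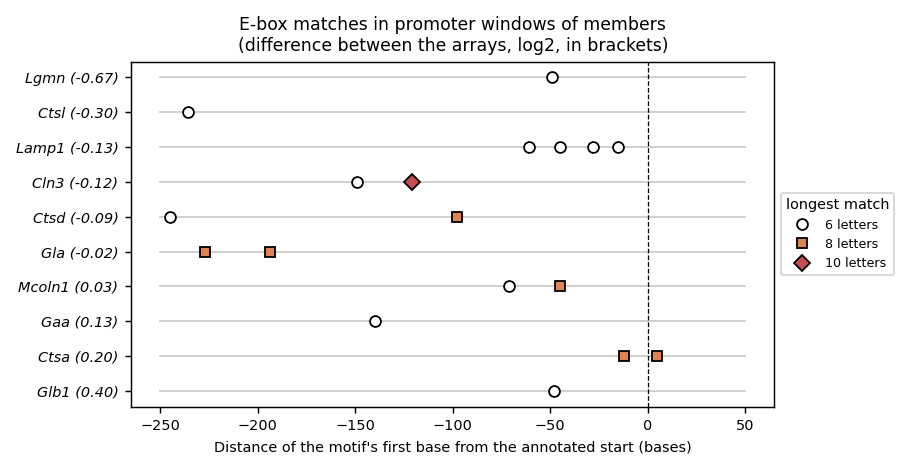
Each row is a gene with CACGTG in a promoter window (grey line), placed by the distance of the motif's first base from the annotated start (x axis, bases), with the difference between the arrays in brackets. Circles mark a 6-letter match, squares an 8-letter match and the diamond the 10-letter match in Cln3, and the genes run from -0.67 for Lgmn at the top to 0.40 for Glb1 at the bottom.

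Among the TFEB-family factors, Tfec and Mitf were lower in silncMDSC and Tfeb was nearly level. Tfec, which in mice is found mainly in macrophages, had an intensity of 635 on the silncMDSC array and 1158 on the control array, 1.82-fold lower, a difference of -0.86. It had the 36th lowest difference of the 11920 genes, and of the 1000 genes nearest to it in mean level 9 were as far apart. Here and below, such counts of the nearest genes include the gene itself. Mitf, known for its part in pigment cells, mast cells and osteoclasts, had 495 in silncMDSC and 604 in control (-0.29), and its dimmer probe set gave 88.8 in silncMDSC and 98.4 in control (-0.15). Tfeb, the factor best known for lysosomal genes, had 386 in silncMDSC and 373 in control (0.05). Tfec and Tfeb were each read by 1 probe set only, so their values have no second reading. Tfe3, the remaining factor of the family, had 295 in silncMDSC and 314 in control (-0.09).

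The proteases were mostly lower in silncMDSC. Of 11, 9 were below 0 and 2 above, with a median of -0.12, which ran from -0.12 to -0.10 over the other settings. Lgmn, an asparaginyl endopeptidase that cuts after asparagine and trims cathepsins to their mature form, had 571 in silncMDSC and 912 in control, 1.60-fold lower (-0.67). It had the 111th lowest difference of all genes, and 23 of the 1000 genes nearest in level were as far apart. Lgmn also has 1 probe set here.

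The papain-type cathepsins with the larger differences were Ctsk, Ctsl and Ctsb, all lower. Ctsl, an endopeptidase that also cuts the invariant chain, had 5083 in silncMDSC and 6245 in control (-0.30), and a dimmer probe set gave 141 in silncMDSC and 165 in control (-0.22). Ctsk, the collagen-cutting protease of osteoclasts, had 113 in silncMDSC and 142 in control (-0.33), not far above the floor. Both of them are on the same side, but 83 of the 1000 genes nearest to Ctsl in level, and 75 of those nearest to Ctsk, were as far apart.

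Ctsb, a broad endopeptidase, was read by 5 probe sets at or above the floor, and the size of its difference depended on the one used. Its brightest probe set had 5269 in silncMDSC and 6264 in control (-0.25). The next brightest had 752 in silncMDSC and 1104 in control (-0.55), and another had 285 in silncMDSC and 502 in control (-0.81). The remaining 2 gave -0.49 and -0.17. All 5 were lower in silncMDSC, and their mean was -0.46, so Ctsb passes the 1.2-fold threshold by the mean of its probe sets and not by the brightest.

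The other proteases were close together. Ctsz, a carboxypeptidase, had 4571 in silncMDSC and 5010 in control (-0.13), with its other probe sets at -0.13 and -0.08. Ctss, the cathepsin that frees class II molecules from the invariant chain in antigen-presenting cells, had 7071 in silncMDSC and 7711 in control (-0.12). Ctsc, which activates the serine proteases of neutrophil granules, had 4097 in silncMDSC and 4413 in control (-0.11). These are bright probe sets, and whether their differences are compressed was not tested. Ctsd, the main aspartic protease, stood at -0.09 and Tpp1, a tripeptidyl peptidase, at -0.06 with 0.04 on its other probe set. Above 0 were Ctsh, an aminopeptidase, at 0.10 and Ctsa, a serine carboxypeptidase, which had 1257 in silncMDSC and 1098 in control (0.20).

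**Figure D3:**
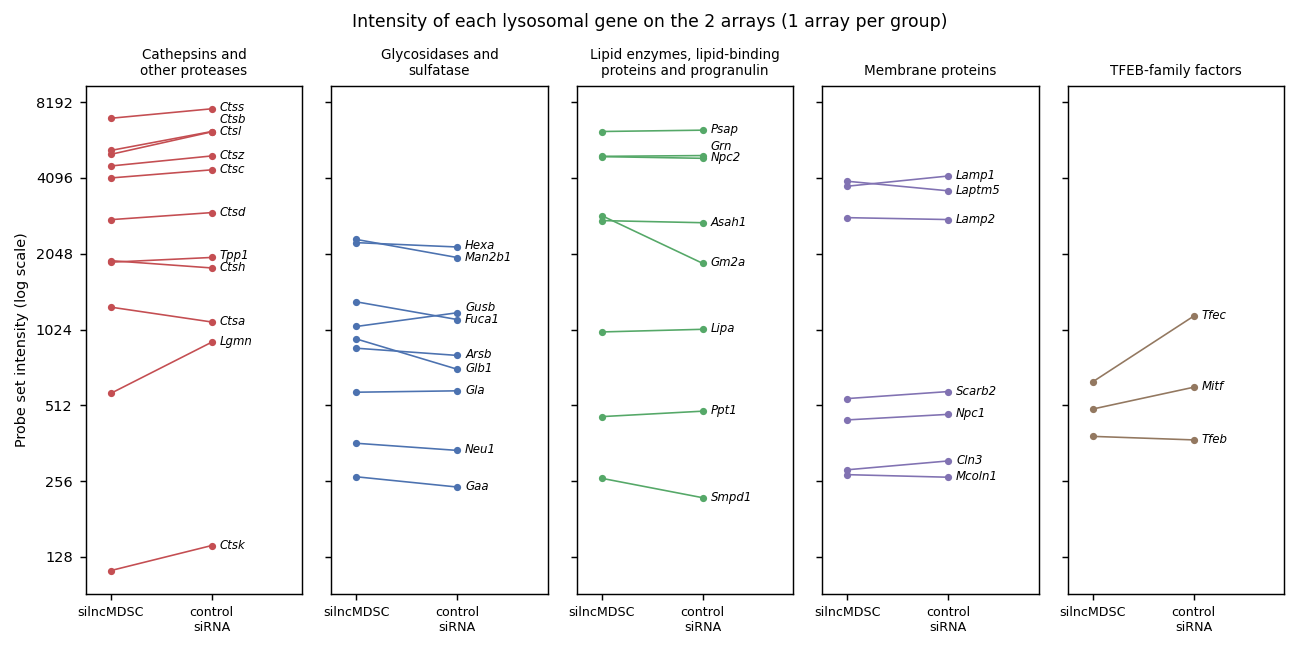
Lines join the intensity of each lysosomal gene (y axis, log scale) on the silncMDSC array, left, to that on the control siRNA array, right, in a panel for each role. Tfec (635 in silncMDSC, 1158 in control), Lgmn (571 in silncMDSC, 912 in control) and Gm2a (2903 in silncMDSC, 1877 in control) have the steepest lines, and heights of different genes cannot be compared.

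The enzymes that trim sugar chains were mostly higher in silncMDSC. Of 9 glycosidases and sulfatases, 7 were above 0 and 2 below, with a median of 0.09 that ran from 0.06 to 0.14 over the other settings. None was 1.5-fold apart. Glb1, the beta-galactosidase, had 940 in silncMDSC and 713 in control, 1.32-fold higher (0.40), and ranked 304 from the top of all genes. It has 1 probe set. Man2b1, an alpha-mannosidase, had 2336 in silncMDSC and 1980 in control (0.24), and its other probe set gave 0.26. Fuca1, an alpha-fucosidase, had 1320 in silncMDSC and 1123 in control (0.23), and its 3 other probe sets were all above 0, at 0.19, 0.14 and 0.06. The sugar-trimming enzymes with more than 1 probe set at or above the floor each kept to 1 side of 0.

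Ctsa, Glb1 and Neu1 form a complex in the lysosome in which Ctsa protects the others, and all 3 were above 0, at 0.20, 0.40 and 0.09. Neu1, a sialidase, had 362 in silncMDSC and 339 in control, with 0.20 on a dimmer probe set and -0.23 on another below the floor. Of all analysed genes 49.3% were above 0. Among the 1000 genes nearest in level, 603 were as far apart as Neu1, 291 as Ctsa and 65 as Glb1. Gaa, which breaks down glycogen, was at 0.13, Arsb, a sulfatase of dermatan sulphate, at 0.09 and Hexa, a subunit of beta-hexosaminidase, at 0.06. Gla, an alpha-galactosidase, was nearly level (-0.02). Gusb, the beta-glucuronidase, was the exception among them, with 1053 in silncMDSC and 1194 in control (-0.18) and -0.39 on its dimmer probe set.

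Of the genes for lipid breakdown, Gm2a was well above control, Smpd1 somewhat above, and 6 of 8 within 0.15. Gm2a, the activator that lifts the ganglioside GM2 out of the membrane for beta-hexosaminidase, had 2903 in silncMDSC and 1877 in control, 1.55-fold higher (0.63). It ranked 92 from the top of all genes, and 12 of the 1000 nearest in level were as far apart. Its second probe set had 272 in silncMDSC and 211 in control (0.36), and a further one, below the floor on both arrays, gave 0.08. The mean of all 3 was 0.36, with which no lysosomal gene remains at least 1.5-fold higher.

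Smpd1, the acid sphingomyelinase, had 263 in silncMDSC and 220 in control (0.25), and 0.15 on its other probe set. Asah1, which splits ceramide, was at 0.03, and Psap, the precursor of the saposins that serve the sphingolipid enzymes, had 6266 in silncMDSC and 6342 in control (-0.02). Lipa, the acid lipase that frees cholesterol, was at -0.03 and Ppt1, a palmitoyl thioesterase, at -0.07. The median of the 8 was 0.01. Npc2, which hands cholesterol to Npc1, had 4979 in silncMDSC and 4903 in control (0.02), and Grn, progranulin, had 4992 in silncMDSC and 5029 in control (-0.01). Lipa, Ppt1, Psap, Npc2 and Grn each had probe sets on both sides of 0, so no direction is given for them.

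By their brightest probe sets, the membrane proteins all lay within 0.15 of control, although Laptm5 was at 0.16 with the loess trend removed and after quantile normalization. Of the 7 read, 3 were above 0 and 4 below, with a median of -0.07, none 1.2-fold apart. Lamp1, the abundant glycoprotein of the lysosomal wall, had 3799 in silncMDSC and 4170 in control (-0.13). Lamp2, its relative with a part in autophagy, had 2850 in silncMDSC and 2801 in control (0.02), but its other 3 probe sets gave 0.06, -0.02 and -0.15. Cln3 (-0.12), Scarb2, the carrier of glucocerebrosidase (-0.09), and Npc1, the cholesterol exporter (-0.07), lay slightly below 0. Mcoln1, a calcium channel, had 272 in silncMDSC and 265 in control (0.03), with -0.11 on its other probe set at the floor. Laptm5, a lysosomal protein of blood cells, had 3976 in silncMDSC and 3643 in control (0.13). Its probe sets ran from -0.23 to 0.21, and the 1 below 0 had 74.1 in silncMDSC and 87.0 in control, so it reached the floor on the control array only. Without probe sets that can cross-hybridise, that dim one alone is left for Laptm5.

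How far probe sets of the same gene lay apart shows how much a difference depends on the probe set used. They share the RNA and are not replicates, so their spans do not measure error between arrays or cultures. The 38 genes had 83 probe sets at or above the floor. Of 26 genes with more than 1, 17 had all on the same side of 0 and 9 did not, namely Tpp1, Lipa, Ppt1, Psap, Npc2, Grn, Lamp2, Mcoln1 and Laptm5. The median span within a gene was 0.11, the widest was 0.65 in Ctsb and the next 0.44 in Laptm5. Of 45 probe sets other than the brightest, 34 were on its side of 0. Of the 38 genes, 19 differed by no more than the median span, which is narrower than the robust SD of 0.18 over all analysed genes. The differences of Gm2a were above 0 on each of its probe sets and those of Ctsb below 0 on each.

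**Figure D4:**
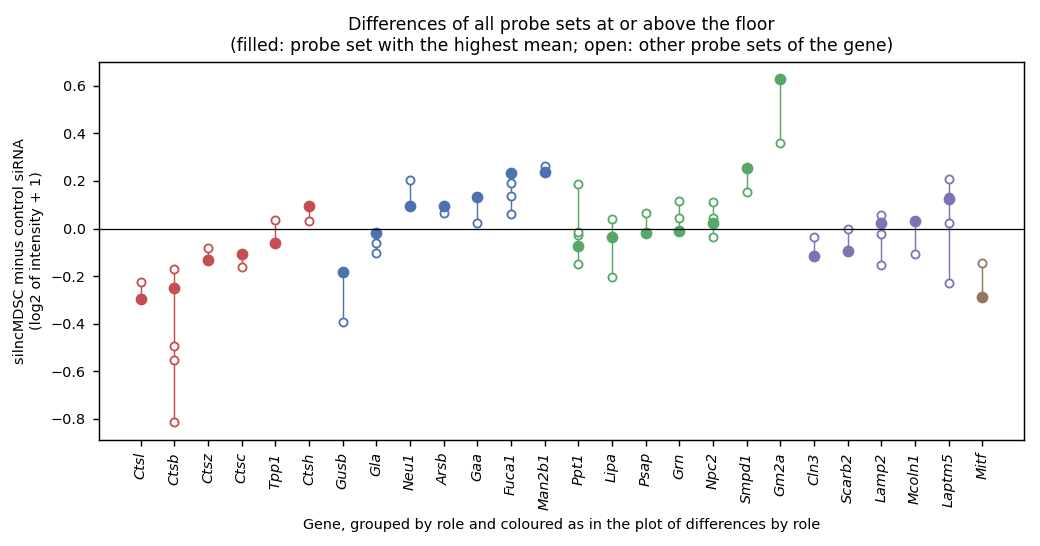
Points are the silncMDSC minus control siRNA difference (y axis, log2 of intensity + 1) of every probe set at or above the floor, for the 26 genes with more than 1, with lines spanning each gene and the probe set of highest mean filled. All 5 probe sets of Ctsb lie below 0, from -0.81 to -0.17, while those of 9 genes straddle 0.

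Other genes of the lysosomal pathway were read in 7 lists. The remaining lysosomal hydrolases had 19 genes at or above the floor, 0 of them 1.2-fold apart, with 10 above 0, 9 below and a median of 0.09. At the upper end lay Sgsh (0.26, but 0.13 by the mean of all probe sets) and Ids (0.23, but 0.10 by the mean of those at or above the floor), which break down heparan sulphate. At the lower end lay Acp2, an acid phosphatase (-0.21), and Hgsnat (-0.19). Hgsnat also serves heparan sulphate breakdown, but it is an acetyltransferase that was listed with the hydrolases. By the mean of its probe sets Acp2 was at -0.33, past 1.2-fold. That median was -0.006 with the mean of all probe sets, so it holds no direction. Other lysosomal membrane proteins had 9 of 18 above 0 and 9 below, with a median of -0.004 that turned to 0.02 with the loess trend removed and after quantile normalization. Mfsd8, above 0 with 81.35 in silncMDSC and 74.93 in control, reached the floor through the silncMDSC array only. With the floor on the mean the median was -0.009. In this list Slc11a1, the metal transporter of phagosomes also called Nramp1, had 556 in silncMDSC and 1014 in control (-0.86). Gpnmb, a glycoprotein of macrophage lysosomes, had 2800 in silncMDSC and 3934 in control (-0.49), and -0.78 by the mean of its probe sets. Tpcn1, a cation channel (0.43, but 0.17 by the mean of its probe sets), and Slc38a9, an arginine sensor for mTORC1 (0.34, but 0.19 without probe sets that can cross-hybridise), were above control.

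Most subunits of the proton pump were slightly below control. Of 17 vacuolar ATPase subunits, 13 were below 0 and 4 above, with a median of -0.08 and 0 of them 1.2-fold apart. The median was -0.045 with the loess trend removed and -0.041 without probe sets that can cross-hybridise. Some of those below 0 were nearly level, such as Atp6v0e (-0.002) and Tcirg1 (-0.01). Atp6v0a1 (-0.24) and Atp6v1c1 (-0.22) were lowest and Atp6v1f (0.08) and Atp6v0d1 (0.05) highest. By the mean of probe sets at or above the floor, Atp6v0a1 and Atp6v1c1 were both at -0.28 and past 1.2-fold. Of 17 genes of mannose 6-phosphate tagging and sorting, 13 were below 0 and 4 above, with a median of -0.02. That median was 0.01 with the loess trend removed and 0.003 after quantile normalization, so it holds no direction. Igf2r, the larger mannose 6-phosphate receptor, had 196 in silncMDSC and 310 in control (-0.66), whereas M6pr, the smaller one, had 2165 on both arrays. Gnptab, which begins the tag, was at -0.23, but at -0.08 by the mean of all probe sets, and Sort1, another sorting receptor, at 0.21, with Ap3b1 at 0.12.

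Genes through which mTORC1 controls TFEB had 12 of 16 below 0, 4 above and a median of -0.12, and only Fnip2, a partner of folliculin, passed 1.2-fold, with 806 in silncMDSC and 1041 in control (-0.37). Rraga, a Rag GTPase, was at -0.24, and Lamtor1 (0.12) and Mtor (0.07) were highest, though with the mean of all probe sets Lamtor1 was at 0.03 and Mtor at -0.07. Autophagy genes lay the other way, with 12 of 16 above 0, 4 below and a median of 0.14. Of these 4 were at least 1.2-fold higher and 0 lower, where 6.96% and 10.6% of all analysed genes passed in these directions. Ulk1, the kinase that starts autophagy, had 303 in silncMDSC and 214 in control (0.50), and Wipi1, which binds the forming membrane, had 296 in silncMDSC and 222 in control (0.41, but 0.19 by the mean of its probe sets). Becn1 (-0.10) and Atg12 (-0.09) were lowest. Of the cysteine protease inhibitors, which restrain the cathepsins, 4 were at or above the floor with a median of 0.03, and Cst3, cystatin C, had 7358 in silncMDSC and 6270 in control (0.23), with Cst7 at 0.12, Stfa3 at -0.06 and Cstb at -0.12. All of these lists are described by their counts and medians alone.

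**Figure D5:**
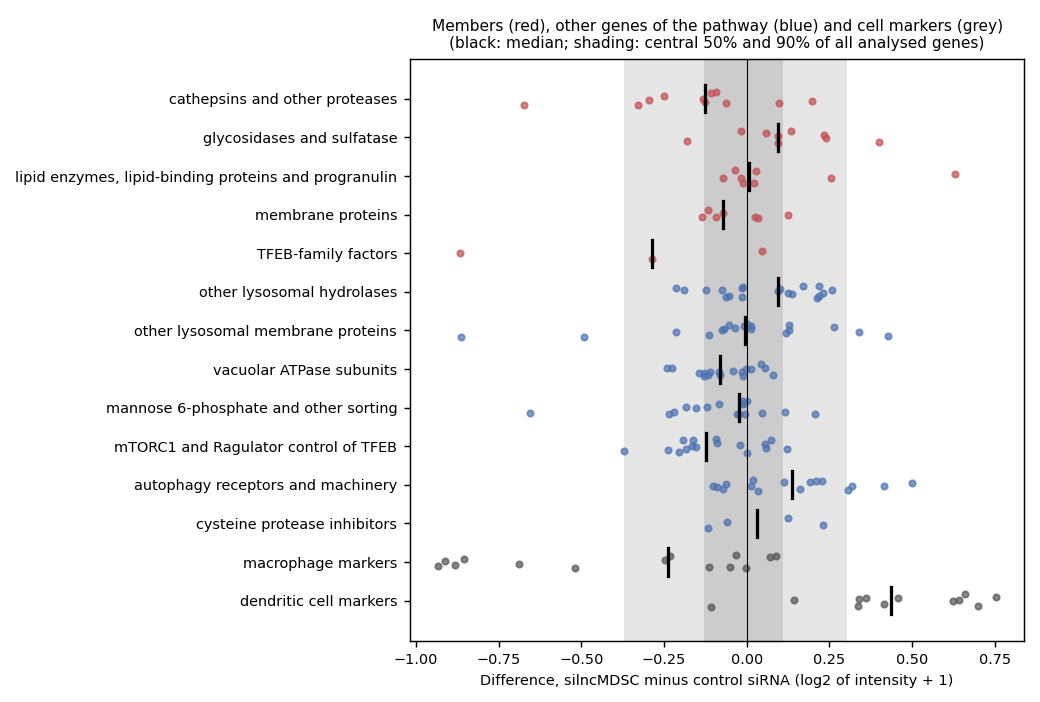
Points are the silncMDSC minus control siRNA difference (x axis, log2 of intensity + 1) of each gene at or above the floor, by role for the lysosomal genes (red), by list for other genes of the pathway (blue) and for 2 sets of cell markers (grey), with black lines at medians. Medians run from -0.29 for the TFEB-family factors to 0.14 for autophagy genes, with macrophage markers at -0.24 and dendritic cell markers at 0.44.

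Cell markers also differed between the cultures, and their intensities are summed here over all markers read. Such a sum is led by the brightest probe sets and includes markers below the floor, so it does not measure how many cells of a type were present. Csf1r counts for both macrophages and monocytes, and Mmp9 for both neutrophils and osteoclasts. Of 14 macrophage markers at or above the floor, of 17 read, 12 were below 0 and 5 were at least 1.5-fold lower, namely Mrc1, Msr1, Apoe, Maf and Mertk. The macrophage median was -0.24, with a summed intensity of 17341 in silncMDSC and 20437 in control. Adgre1 (-0.001) was nearly level, and Csf1r (0.09) and Cd5l (0.07) were above 0. Of 12 dendritic cell markers, of 14 read, 11 were above 0 and 5 were at least 1.5-fold higher, namely H2-Eb1, Ciita, Itgax, Ccr7 and Batf3. Their median was 0.44, and the sum was 23272 in silncMDSC and 17207 in control. Cd209a was the 1 below 0, at -0.11. The sum was led by H2-Aa, H2-Ab1, Cd74 and H2-Eb1 of the MHC class II pathway, which macrophages use too. A higher value of this list is therefore not specific to dendritic cells. Across all analysed genes, 0.948% passed the 1.5-fold threshold upwards and 1.42% downwards. Of 8 monocyte markers, all at or above the floor, 5 were above 0 and 3 below, with a median of 0.10 and a sum of 11389 in silncMDSC and 11386 in control, but at 1.2-fold 2 passed upwards and 2 downwards, and Vcan was at -1.01. Of 13 neutrophil markers, all at or above the floor, 11 were below 0 and 2 above, with a median of -0.09 and a sum of 76431 in silncMDSC and 79562 in control. The 4 eosinophil markers at or above the floor, of 6 read, were all above 0, with a median of 0.46 and a sum of 4381 in silncMDSC and 3156 in control. Of 7 markers of mast cells and basophils, of 9 read, 5 were above 0 and 2 below, with a median of 0.04 and a sum of 7627 in silncMDSC and 7084 in control. Of 5 osteoclast markers, of 8 read, 4 were above 0 and 1 below, with a median of 0.14 and a sum of 1780 in silncMDSC and 1688 in control. No marker read was at the lowest value of 1 on both arrays, and below the floor on both lay Marco, Cd163 and Vsig4 of macrophages, Xcr1 and Siglech of dendritic cells, Ccr3 and Il5ra of eosinophils, Tpsab1 and Cma1 of mast cells, and Ocstamp, Calcr and Oscar of osteoclasts. Fewer cells of a type and less message per cell cannot be told apart in such cultures, and the part of cell makeup in the differences of Tfec, Lgmn, Gm2a and the other lysosomal genes was not tested.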

How the data were processed

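Gene expression was measured on 2 Affymetrix mouse genome arrays, 1 for silncMDSC and 1 for control siRNA. The values deposited by the authors were linear probe set intensities, with a lowest value of exactly 1. The submitters' processing notes name RMA (version not given in the sources used here), which usually returns log2 values, so how the linear scale and the lower limit arose is unknown. The methods name limma, which needs replicates, so no test was run. The number of arrays limits the precision.

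Of 45037 probe sets, after 64 control probe sets were set apart, 34945 had 1 symbol in the platform annotation, 932 several and 9160 none. Entrez identifiers of 34741 of them were found in a RefSeq table of GRCm38.p6 and 0 symbols changed. Only probe sets with 1 symbol named a gene. Differences used a pseudocount of 1, with which folds of dim genes are slightly understated. Promoter windows came from RefSeq.

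Text values are given for members at least 1.5-fold apart, the 8 highest and 8 lowest, all TFEB-family factors, members whose probe sets differ in sign, and, from each pathway list, the 2 highest, the 2 lowest and any gene at least 1.5-fold apart. Other members, M6pr and Tfe3 were added to describe their groups after their values were seen. Members and lists were chosen with earlier results of these data known. The 9 alternatives were centring, a loess trend removed (span 0.3), quantile normalization, a pseudocount of 16, no floor, a floor at the 75th percentile, a floor on the mean, the mean of all probe sets, and no _x_at or _s_at probe sets. The mean of only the probe sets at or above the floor was added after seeing the data. The calculation was tested on simulated data with planted folds larger than 1.5 and a narrower spread than between these arrays. That checks the arithmetic and not the counts at 1.2-fold or 1.5-fold. Python 3.11.15, pandas 2.3.3 and statsmodels 0.14.6 were used.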

Additional observations from a re-analysis of the deposited data

How the results depend on the processing

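A value was taken as moved when it shifted by more than the robust SD of all genes (0.18), and a count when it changed by more than 1.5 times. The number of lysosomal genes at least 1.5-fold lower stayed at 2 under the 9 alternatives and the added one. The number at least 1.5-fold higher fell to 0 with the mean of all probe sets and with the mean of those at or above the floor, because the dimmer probe sets of Gm2a differ less. The number at least 1.2-fold higher was 4 with the loess trend removed and 4 after quantile normalization, against 2, and the number at least 1.2-fold lower ran from 4 to 5, with Gusb and Ctsb in place of Mitf and Ctsl by the mean of all probe sets. Medians of the lists moved by less than the robust SD under all of these alternatives, and the signs of the medians of all members, other membrane proteins, the sorting genes and the other hydrolases turned under some. Tfec and Lgmn have 1 probe set each, so choosing another could not be tried for them. No paired analysis was possible because each group has 1 array, and for the same reason no array could be left out. With 1 array per group, no difference of any size can be told from variation between cultures. Whether the brightest probe sets understate differences was not tested.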
